A study of Mus musculus with 8 samples.

Results

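Expression of 9 genes of the matrix metalloproteinase (MMP) system, MMP2, MMP9, MMP11, MMP14, MMP15, TIMP1, TIMP2, TIMP3 and TIMP4, was measured in primary mouse astrocytes with and without transforming growth factor β (TGF-β). The genes were chosen by name, and 9 of 9 were found among the 13937 genes of the count table and passed the filter on low counts that left 13509 genes. Bulk RNA was sequenced from astrocytes of brains taken from C57BL/6 pups at postnatal day 1. Each genotype, WT and RGC-32 KO, gave a control group and a TGF-β group, with 2 biological replicates each and so 8 libraries. WT is wild type, and RGC-32 KO cells lack response gene to complement 32, a cell cycle and TGF-β response factor whose gene is RGCC. The cells of all 4 groups had been grown in medium with fetal bovine serum, shaken to remove oligodendrocyte precursors and neurons, and starved of serum overnight. TGF-β was then given at 10 ng/ml for 24 h, and the control cells were left untreated.

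MMPs are zinc-dependent proteases that cleave extracellular matrix, growth factors and cell surface proteins. They are made as inactive proenzymes, and tissue inhibitors of metalloproteinases (TIMPs) bind and block the active enzymes. In the brain they take part in the opening of the blood-brain barrier, in scar formation by reactive astrocytes and in the remodeling of perineuronal matrix. MMP14 and MMP15 sit in the cell membrane, and on the cell surface MMP14 together with TIMP2 activates the proenzyme of the secreted gelatinase MMP2. RNA levels do not show how much of an enzyme is active.

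Total counts per library ran from 14920561 to 18956038. RGCC had 80 and 94 counts in untreated WT cells, 215 and 362 counts in stimulated WT cells, 61 and 28 counts in untreated RGC-32 KO cells and 64 and 26 counts in stimulated RGC-32 KO cells, so the RGC-32 KO libraries all held fewer than the WT libraries, with none at 0. Astrocyte markers were present (10 of 10 genes, GFAP and AQP4 included), with a summed level from 3440 to 5737 CPM per library (CPM, counts scaled by TMM to a common library total). Other cell types were also represented. Markers of microglia or macrophages (10 of 10) summed to between 1047 and 1383 CPM, and those of endothelial cells (6 of 8) to between 76.2 and 127 CPM. Of the neuronal markers, 5 of 9 were in the table, summing to between 280 and 397 CPM, and RBFOX3, SNAP25, SLC17A7 and NEFL were not.

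TGF-β stimulation up-regulated TIMP1, TIMP3, MMP14 and MMP2 in both genotypes. In RGC-32 KO astrocytes it also up-regulated MMP9 and down-regulated MMP15, which in WT astrocytes moved the same way without meeting the threshold. TIMP2, TIMP4 and MMP11 did not meet the threshold in either genotype. A gene was called at an adjusted p under 0.05 (edgeR quasi-likelihood test, Benjamini-Hochberg over the 13509 genes) with a log2 fold change of 0.6 or more in size, about 1.5-fold. By this rule 4 of the 9 genes were up-regulated in WT, where 7.72% of all genes tested were, and 0 were down-regulated, where 5.65% of all genes were. In RGC-32 KO, 5 were up-regulated and 1 was down-regulated, against 6.61% and 4.93% of all genes. Averaged over genotypes, 5 were up-regulated and 0 down-regulated, against 8.33% and 6.75%. The median log2 fold change of the 9 genes was 0.65 for WT and 1.03 for RGC-32 KO, while over all genes tested it was -0.0048 and 0.0031.

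**Figure D1:**
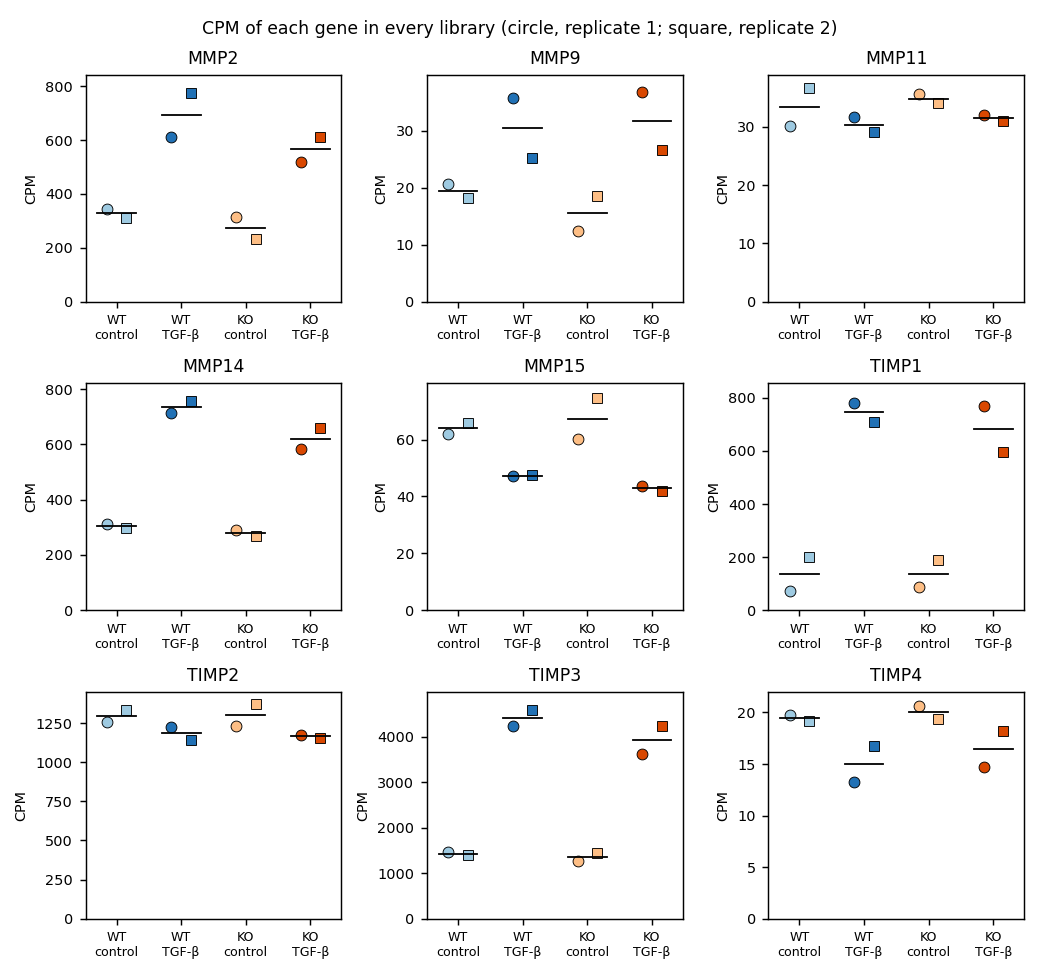
Level of each of the 9 genes (CPM, linear axis from 0) in the 8 libraries. Circles are replicate 1, squares are replicate 2 and bars are group means. TIMP3, TIMP1, MMP14 and MMP2 lie higher in every TGF-β library than in every control library, and the TIMP1 control replicates lie apart from each other.

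Levels were compared between genes on the FPKM scale, which accounts for transcript length. In WT control astrocytes the inhibitors TIMP2 and TIMP3 were the most abundant, at 325 ± 14.5 and 286 ± 3.12 FPKM (SD, n = 2). TIMP1 followed at 130 ± 69.9 FPKM, MMP2 at 89.5 ± 6.98 and MMP14 at 69.4 ± 1.03. MMP15 (13.4 ± 0.585), MMP11 (12.1 ± 1.21), TIMP4 (5.76 ± 0.246) and MMP9 (4.68 ± 0.543) made up the low end. In this order TIMP1 and MMP2 overlapped between libraries, and so did MMP15 and MMP11. In the FPKM table, each pair of libraries with the same replicate number shared identical values above 0 at 773 to 873 of 18644 genes. Pairs with different numbers shared 0, and the sources used here do not say why. All FPKM SDs, overlaps, shares and ratios given here rest on that table, so their spread between replicates may not be that of the counts. For TIMP3 in RGC-32 KO TGF-β the SD was 16.0 at a mean of 710 FPKM, and 438 at a mean of 3928 CPM. For TIMP1 in WT TGF-β it was 87.4 at 631 FPKM, and 49.0 at 745 CPM.

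With TGF-β the order at the top changed. TIMP3 came first in WT at 777 ± 26.2 FPKM, followed by TIMP1 at 631 ± 87.4 and TIMP2 at 275 ± 13.5. In RGC-32 KO TGF-β the order of these 3 was the same, at 710 ± 16.0, 588 ± 170 and 273 ± 1.31 FPKM, but the TIMP3 and TIMP1 libraries overlapped. By mean FPKM, MMP2 and then MMP14 followed these 3 inhibitors in all 4 groups, though MMP2 and MMP14 overlapped in RGC-32 KO control. TIMP4 was the lowest of the 9 with TGF-β, at 3.97 ± 0.586 FPKM in WT and 4.33 ± 0.649 in RGC-32 KO, and MMP9 was the lowest in both control groups.

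**Figure D2:**
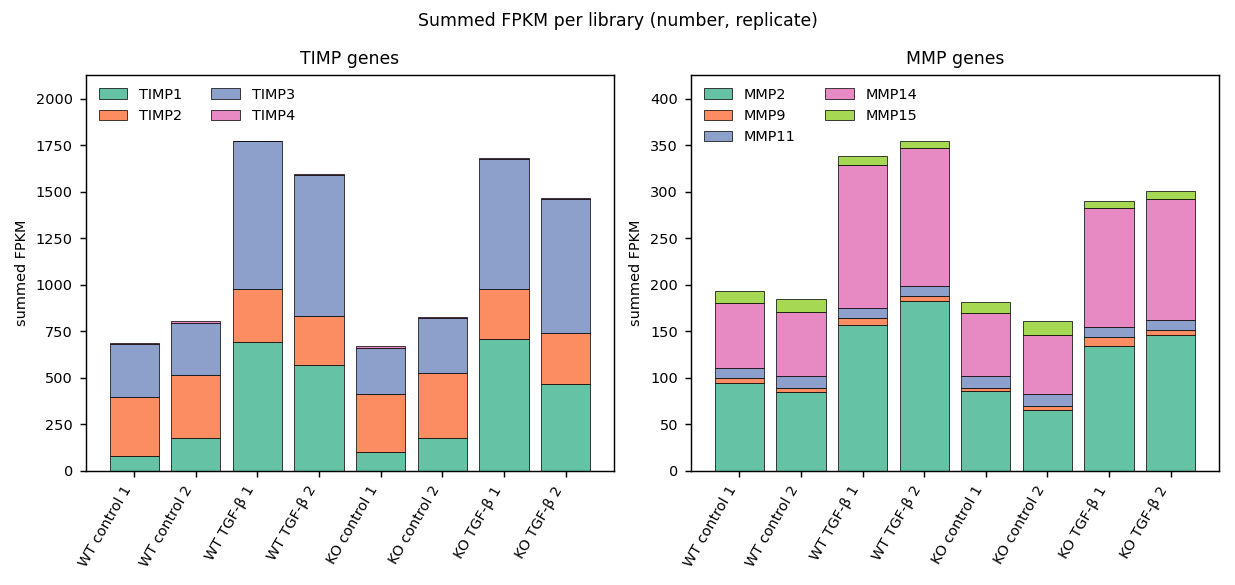
Summed FPKM of the 4 TIMP genes (left) and the 5 MMP genes (right) in each library, stacked by gene, with axes from 0. The TIMP sums run from 669 to 828 in control and from 1467 to 1776 with TGF-β, and the MMP sums from 161 to 194 and from 290 to 355.

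MMP2, gelatinase A, degrades type IV collagen and other basement membrane proteins. It had the highest mean FPKM of the 5 MMPs in each group, though in RGC-32 KO control it overlapped MMP14. It had 345 and 311 CPM in untreated WT cells, 611 and 776 CPM in stimulated WT cells, 315 and 232 CPM in untreated RGC-32 KO cells and 518 and 612 CPM in stimulated RGC-32 KO cells. Every TGF-β library lay above every control library. WT astrocytes responded to TGF-β with a change of 1.08 in log2 units (SE 0.17, adjusted p = 0.00284) and RGC-32 KO astrocytes with one of 1.05 (SE 0.17, adjusted p = 0.00394), which is a 2.11-fold and a 2.07-fold increase. The gene lies on chromosome 8 at 92827291 to 92853420, plus strand (GRCm38, GENCODE M21, as for all positions).

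MMP9, gelatinase B, is known for its induction in injured and inflamed brain, and had the lowest mean FPKM of the 5 MMPs in each group, though in RGC-32 KO TGF-β it overlapped MMP15. It had 20.6 and 18.3 CPM in untreated WT cells, 35.8 and 25.2 CPM in stimulated WT cells, 12.4 and 18.6 CPM in untreated RGC-32 KO cells and 36.8 and 26.6 CPM in stimulated RGC-32 KO cells. The TGF-β and control libraries did not overlap in either genotype. On the log2 scale the change was 0.65 in WT cells (SE 0.24, adjusted p = 0.0681) against 1.03 in RGC-32 KO cells (SE 0.24, adjusted p = 0.0173). The WT value passed in DESeq2 (0.64, adjusted p = 0.0198) and with control replicate 1 paired to TGF-β replicate 2, and the reverse, as a block (0.63, adjusted p = 0.0152), and the adjusted p ran from 0.0152 to 0.316 over all alternatives. The RGC-32 KO call was lost without control replicate 1 (0.75, adjusted p = 0.0909) and without TGF-β replicate 1 (0.77, adjusted p = 0.0954).

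MMP11, stromelysin 3, is activated inside the cell by furin, unlike most secreted MMPs. It had 30.2 and 36.8 CPM in untreated WT cells, 31.7 and 29.2 CPM in stimulated WT cells, 35.7 and 34.1 CPM in untreated RGC-32 KO cells and 32.1 and 31.0 CPM in stimulated RGC-32 KO cells. On the log2 scale the change was -0.14 in WT cells (SE 0.10, 95% interval -0.37 to 0.09) against -0.14 in RGC-32 KO cells (SE 0.10, 95% interval -0.37 to 0.08). Both intervals leave out a change of 0.6 on the log2 scale in either direction. MMP11 (chromosome 10, 75923222 to 75936496, minus strand) shares 155 exon bases with CHCHD10 on the opposite strand, and in these unstranded libraries reads from the shared bases cannot be told apart.

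MMP14, the membrane-type protease that activates the proenzyme of MMP2, had the smallest errors among the genes that rose. It had 312 and 297 CPM in untreated WT cells, 713 and 758 CPM in stimulated WT cells, 290 and 267 CPM in untreated RGC-32 KO cells and 582 and 658 CPM in stimulated RGC-32 KO cells. WT astrocytes responded to TGF-β with a change of 1.27 in log2 units (SE 0.083, adjusted p = 0.000122) and RGC-32 KO astrocytes with one of 1.15 (SE 0.083, adjusted p = 0.000201), a 2.41-fold and a 2.23-fold increase. The gene lies on chromosome 14 at 54431612 to 54445364, plus strand.

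MMP15, a further membrane-type MMP that can also activate the proenzyme of MMP2, moved the other way. It had 62.0 and 66.0 CPM in untreated WT cells, 47.2 and 47.4 CPM in stimulated WT cells, 60.4 and 74.5 CPM in untreated RGC-32 KO cells and 43.8 and 42.0 CPM in stimulated RGC-32 KO cells. All 4 TGF-β libraries lay below all 4 control libraries. On the log2 scale the change was -0.44 in WT cells (SE 0.097, adjusted p = 0.0119), short of the fold threshold, against -0.65 in RGC-32 KO cells (SE 0.098, adjusted p = 0.00285). Without RGC-32 KO control replicate 2 the second value was -0.49 (adjusted p = 0.00852) and no longer met the fold threshold. Averaged over genotypes it was -0.54 (SE 0.069, adjusted p = 0.000534), so MMP14 and MMP15, both membrane-type enzymes, had log2 fold changes of opposite sign.

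TIMP1, a secreted inhibitor that binds the proenzyme of MMP9 and is a classical marker of reactive astrocytes, had the largest increase of the 9 genes. It had 73.8 and 199 CPM in untreated WT cells, 780 and 710 CPM in stimulated WT cells, 86.4 and 189 CPM in untreated RGC-32 KO cells and 768 and 596 CPM in stimulated RGC-32 KO cells. Every TGF-β library was at least 596 CPM and every control library at most 199 CPM. The fold change on the log2 scale reached 2.45 in WT cells (SE 0.48, adjusted p = 0.00709, 5.45-fold) against 2.31 in RGC-32 KO cells (SE 0.48, adjusted p = 0.0104, 4.95-fold).

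The size of the TIMP1 increase depended on the control library. Control replicate 2 held 2.70 times the CPM of replicate 1 in WT and 2.18 times in RGC-32 KO, and 36 and 63 of the 13509 genes had a larger gap between those replicates. The log2 fold change in WT was 1.90 without control replicate 1 (adjusted p = 0.0173) and 3.32 without control replicate 2 (adjusted p = 0.00418). In RGC-32 KO it was 1.84 without control replicate 1, where the call was lost (adjusted p = 0.053), and 2.98 without control replicate 2 (adjusted p = 0.0197).

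TIMP1 (chromosome X, 20870166 to 20874735, plus strand) lies inside the gene of synapsin 1, which runs on the opposite strand, and the exons of the pair share 0 bases. Just inside the transcript it holds the letters TGAGTAA, a variant AP-1 element known from this gene and searched for on that account, at bases 27 to 33 counted from the start of transcription. The stretch is shown in RefSeq sequence (GRCm38.p6, chromosome X, 20870181 to 20870209, plus strand) with the element in capitals, because AP-1 subunits were measured too.
TIMP1: cggtgggtggaTGAGTAAtgcgtccagga
Among 32851 promoters of the same length (250 bases before to 50 after the start), 2.68% held these letters on either strand, and of the 7 promoters of the 9 genes that were matched only that of TIMP1 did. MMP2 and MMP9 were not matched. Of the AP-1 subunits, FOSL1 rose in both genotypes (log2 fold change 0.97 in WT, adjusted p = 0.00592, and 1.19 in RGC-32 KO, adjusted p = 0.00372) and FOSL2 met the threshold in WT (0.67, adjusted p = 0.0032) but not in RGC-32 KO (0.58, adjusted p = 0.00708). The other 6 of 8 subunits did not meet it.

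The usual AP-1 letters TGANTCA, found in 7.81% of all promoters, and the SMAD palindrome GTCTAGAC, found in 0.213%, were in 0 of the 7 matched promoters. The short SMAD element CAGAC (49.6% of all promoters) was in TIMP4 and MMP11 and in none of the other 5, and GGCGCC (11.9%) only in MMP11. All motifs were searched on both strands, and none contains another. TIMP4 and MMP11 were among the genes that did not meet the threshold for TGF-β. A match describes letters in this window and shows no binding.

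TIMP2, which inhibits MMPs and also forms the bridge between MMP14 and the proenzyme of MMP2, stayed within a narrow range. It had 1254 and 1331 CPM in untreated WT cells, 1224 and 1145 CPM in stimulated WT cells, 1233 and 1371 CPM in untreated RGC-32 KO cells and 1175 and 1157 CPM in stimulated RGC-32 KO cells. On the log2 scale the change was -0.13 in WT cells (SE 0.082, 95% interval -0.32 to 0.06, adjusted p = 0.271) against -0.16 in RGC-32 KO cells (SE 0.082, 95% interval -0.35 to 0.03, adjusted p = 0.182). The intervals leave out a change of 0.6 in either direction.

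TIMP3 is bound to the matrix and blocks ADAM family sheddases as well as MMPs. It was the gene with the most counts of the 9, at 1462 and 1399 CPM in untreated WT cells, 4231 and 4586 CPM in stimulated WT cells, 1263 and 1451 CPM in untreated RGC-32 KO cells and 3619 and 4237 CPM in stimulated RGC-32 KO cells. All TGF-β libraries lay far above all control libraries. On the log2 scale the change was 1.62 in WT cells (SE 0.11, adjusted p = 0.000143, 3.08-fold) against 1.53 in RGC-32 KO cells (SE 0.11, adjusted p = 0.000201, 2.89-fold). TIMP3 (chromosome 10, 86300372 to 86349506, plus strand) lies inside the gene of synapsin 3 and shares 1733 exon bases with it on the opposite strand. SYN3 was not analysed here, and how reads in the shared bases were assigned is not given in the sources used here.

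TIMP4, the inhibitor with the most restricted tissue distribution, was low. It had 19.8 and 19.2 CPM in untreated WT cells, 13.2 and 16.8 CPM in stimulated WT cells, 20.6 and 19.4 CPM in untreated RGC-32 KO cells and 14.7 and 18.2 CPM in stimulated RGC-32 KO cells. The TGF-β libraries lay below the control libraries in each genotype. The fold change on the log2 scale reached -0.38 in WT cells (SE 0.14, adjusted p = 0.0686) against -0.28 in RGC-32 KO cells (SE 0.14, adjusted p = 0.172). Averaged over genotypes it was -0.33 (SE 0.099, adjusted p = 0.0255), short of the fold threshold. TIMP4 (chromosome 6, 115241892 to 115252205, minus strand) lies inside the gene of synapsin 2 and shares 90 exon bases with it. For SYN2 the change was -0.12 (WT, adjusted p = 0.407) and 0.03 (RGC-32 KO, adjusted p = 0.827). For SYN1, the synapsin 1 gene around TIMP1, it was 0.50 (WT, adjusted p = 0.0247) and 0.54 (RGC-32 KO, adjusted p = 0.0220), short of the fold threshold.

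**Figure D3:**
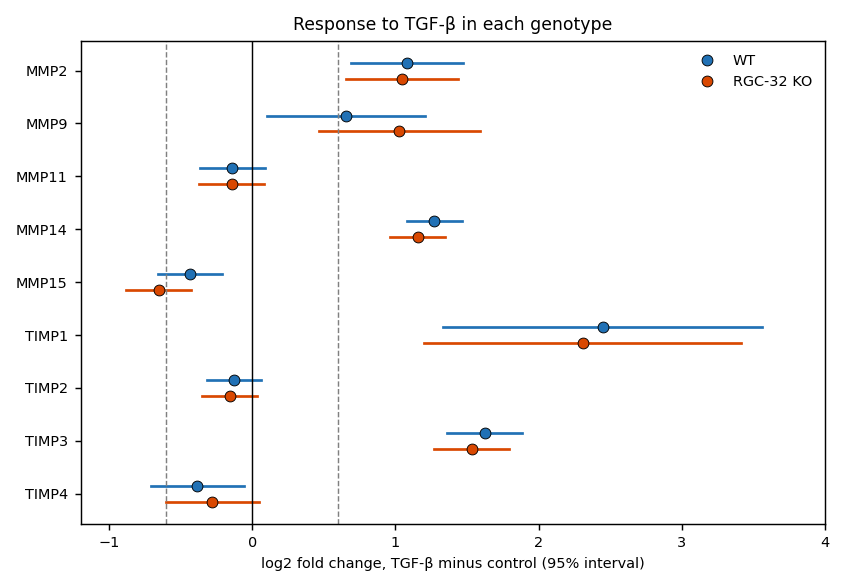
Log2 fold change (TGF-β minus control) with its 95% interval for each gene in WT (blue) and RGC-32 KO (orange). Dashed lines mark 0.6 in each direction. TIMP1 has the largest values (2.45 and 2.31) and the widest intervals, and the intervals of the genotypes overlap for all 9 genes.

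The make-up of the inhibitor and protease RNA shifted with TGF-β. TIMP2 made up 41.7 to 47.1% of the summed TIMP FPKM in the 4 control libraries and 16.0 to 18.6% in the 4 TGF-β libraries. TIMP1 made up 11.7 to 22.3% in control and 31.9 to 42.1% with TGF-β, while TIMP3 went from 35.3 to 41.9% in control to 41.5 to 49.2%. These are shares, so a rise of one lowers the others, and TIMP2 itself differed little between groups.

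MMP2 and MMP14 together made up 80.0 to 84.9% of the summed FPKM of the 5 MMPs in control and 90.1 to 93.1% with TGF-β. The ratio of MMP14 to TIMP2 was between 0.182 and 0.223 in control libraries and between 0.468 and 0.557 in TGF-β libraries. That of MMP2 to TIMP2 was between 0.189 and 0.300 in control and between 0.494 and 0.689 with TGF-β. The control and TGF-β libraries did not overlap in either ratio.

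Within the genes described, the ratio of the summed TIMPs to the summed MMPs overlapped between control and TGF-β libraries. It was 3.55 and 4.36 in untreated WT cells, 5.25 and 4.50 in stimulated WT cells, 3.67 and 5.15 in untreated RGC-32 KO cells and 5.80 and 4.88 in stimulated RGC-32 KO cells. The WT groups did not overlap and the RGC-32 KO groups did. The ratios and shares were not tested.

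The effect of RGC-32 deletion on the 9 genes was compared at rest and after stimulation. In control astrocytes 0 of the 9 genes differed between RGC-32 KO and WT past the threshold (edgeR), where 0.037% of all genes did, and 0 had an unadjusted p under 0.05. With TGF-β the count was again 0, against 0.0444% of all genes, and 1 gene, MMP14, had an unadjusted p under 0.05, as did 11.7% of all genes. Averaged over treatments it was 0, against 0.126% of all genes, with MMP14 and MMP2 at an unadjusted p under 0.05, as were 15% of all genes. DESeq2 and limma-voom called 0 of the 9 in each of these comparisons as well.

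MMP14 was lower in both RGC-32 KO TGF-β libraries (582 and 658 CPM) than in both WT TGF-β libraries (713 and 758 CPM), with a log2 difference of -0.25 (SE 0.082, 95% interval -0.44 to -0.06, adjusted p = 0.317). In control the difference was -0.13 (SE 0.082, 95% interval -0.32 to 0.06), and these libraries did not overlap either. For MMP2 the log2 difference was -0.26 in control (95% interval -0.65 to 0.13) and -0.29 with TGF-β (95% interval -0.68 to 0.09). The genotypes overlapped for MMP2 in control and with TGF-β.

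For TIMP2, TIMP3, MMP11 and MMP15 the 95% intervals of the genotype difference stayed within 0.6 on the log2 scale in control and with TGF-β. TIMP4 had intervals of -0.28 to 0.35 in control and -0.19 to 0.47 with TGF-β. For TIMP1 they were wide, at -1.06 to 1.08 in control and -1.18 to 0.92 with TGF-β, so these libraries cannot show a moderate difference in TIMP1. MMP9 had a difference of -0.32 in control (95% interval -0.90 to 0.26) and 0.05 with TGF-β (95% interval -0.48 to 0.58).

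**Figure D4:**
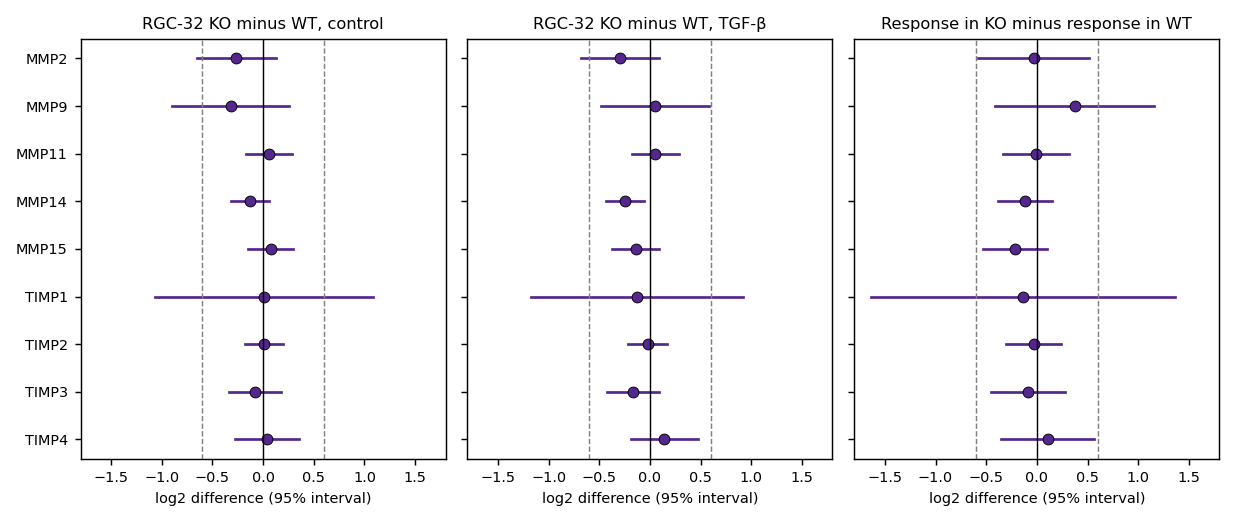
Log2 difference with its 95% interval for RGC-32 KO minus WT in control (left) and with TGF-β (middle), and for the response in RGC-32 KO minus the response in WT (right). Dashed lines mark 0.6 in each direction. The interval of MMP14 with TGF-β lies below 0 (-0.44 to -0.06), and those of TIMP1 are the widest.

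Whether the response to TGF-β differed between genotypes was tested as an interaction. The count of genes past the threshold was 0 of 9 and 0% of all genes tested, of which 381 had an unadjusted p under 0.05, and DESeq2 and limma-voom also called 0 of the 9. The unadjusted p of each of the 9 genes was 0.155 or more. MMP9, called in RGC-32 KO only, had an interaction of 0.37 on the log2 scale (SE 0.34, 95% interval -0.41 to 1.16, adjusted p = 1.00). MMP15, also called in RGC-32 KO only, had -0.22 (SE 0.14, 95% interval -0.54 to 0.10, adjusted p = 1.00). A difference between the genotypes in the response of MMP9 or MMP15 was therefore not shown.

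Some markers of other cells moved with the treatment. The summed level of 10 of 10 meningeal fibroblast markers was 3505 to 5497 CPM in control and 6485 to 9865 CPM with TGF-β, and it was lower in both RGC-32 KO groups than in the WT group of the same treatment. Of the 9 tested, COL1A1 and COL1A2, collagen genes that TGF-β also induces, rose in WT, and DCN and PDGFRA fell. The median log2 fold change of these 9 markers was -0.32 for WT and -0.17 for RGC-32 KO. The fibroblast markers therefore did not rise as a set, and COL1A1 and COL1A2 held much of the sum. Their means were 1696 and 1561 CPM in untreated WT cells and 4217 and 3301 CPM in stimulated WT cells. With RGC-32 deleted these means were lower, at 1257 and 1033 CPM untreated and 2893 and 2209 CPM stimulated. For pericytes and smooth muscle (5 of 8 in the table, without KCNJ8, ABCC9 and DES) the sum was 2365 to 2977 CPM in control and 5328 to 6179 CPM with TGF-β, with PDGFRB, MYH11 and ACTA2 called in both genotypes. The oligodendrocyte lineage sum (8 of 9) went from 221 to 266 CPM in control to 374 to 545 CPM with TGF-β, with CSPG4 called up and PDGFRA down in both genotypes. Of 6 ependymal markers tested, 6 fell in WT and 4 in RGC-32 KO, and their sum was 371 to 446 CPM in control and 232 to 292 CPM with TGF-β. Of 5 neuronal markers tested, TUBB3 alone was called, rising by 0.98 on the log2 scale in WT and 0.95 in RGC-32 KO. The neuronal markers did not rise as a set, since the middle value of the 5 was 0.11 (WT) and 0.19 (RGC-32 KO). Of 10 microglia or macrophage markers tested, only TMEM119 was called, upward in both genotypes. Among 6 endothelial markers tested, FLT1 was called up and CDH5 down in both genotypes, and KDR down in RGC-32 KO only. The summed astrocyte markers were 4325 to 5737 CPM in control and 3440 to 4585 CPM with TGF-β, and they were higher in both RGC-32 KO groups than in the WT group of the same treatment. The part of these markers in the values of MMP2, MMP14, TIMP1 and TIMP3 was not tested, and in bulk samples fewer cells of a type and less RNA per cell cannot be told apart.

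**Figure D5:**
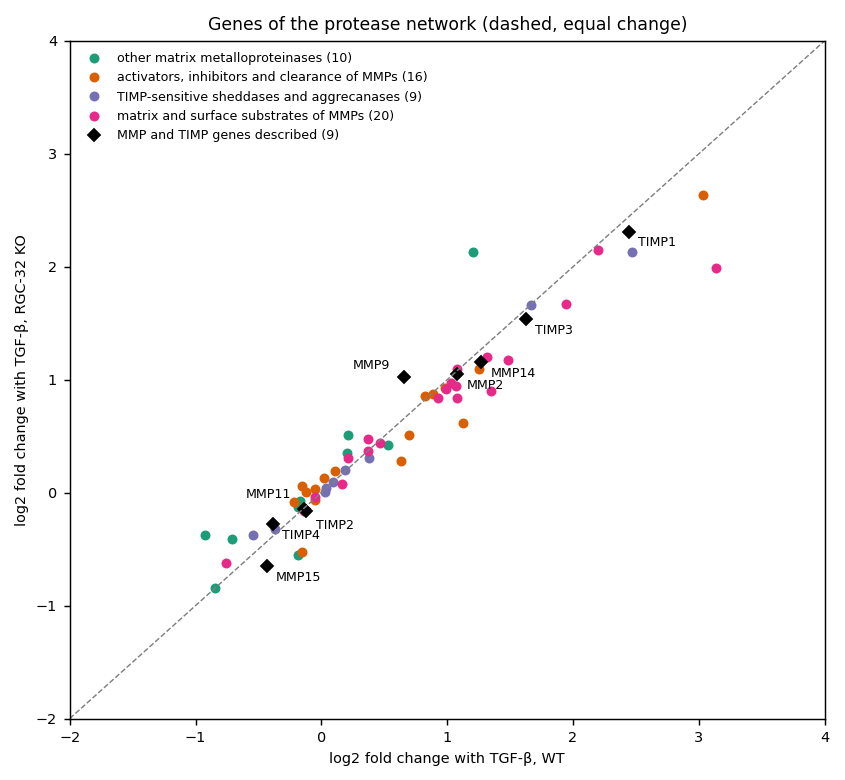
Log2 fold change with TGF-β in WT (horizontal) and in RGC-32 KO (vertical) for the 9 genes (black diamonds, named) and for the genes tested of 4 related lists (colored points). The dashed line marks equal change. Among the sheddases and aggrecanases, ADAMTS4 lies at 2.47 in WT and 2.13 in RGC-32 KO.

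Of 18 further MMP genes 13 were in the count table and 10 were tested, of which 0 rose and 1 fell in WT, and 1 rose and 1 fell in RGC-32 KO. The median over these 10 was -0.18 for WT and -0.10 for RGC-32 KO on the log2 scale. For this list and the other related lists, the shares of all genes tested were 7.72% up and 5.65% down in WT. In RGC-32 KO they were 6.61% and 4.93%. The lists were chosen with earlier results of these data known, so their counts are a description. MMP12, macrophage elastase, fell in both genotypes (-0.84 in WT, adjusted p = 0.0348, and -0.85 in RGC-32 KO, adjusted p = 0.0309). MMP25 met the threshold in RGC-32 KO on no more than 12 counts in any library. MMP3, stromelysin 1, was named here after its values were seen. It stood at 65.8 ± 0.229 FPKM (144 ± 9.18 CPM) in WT control, near the 69.4 FPKM of MMP14. The log2 fold change of MMP3 was 0.21 in WT (adjusted p = 0.539) and 0.51 in RGC-32 KO (adjusted p = 0.151). In RGC-32 KO its TGF-β libraries had 301 and 163 CPM.

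Of 19 genes that activate, inhibit or clear MMPs, 16 were tested, and 7 rose in WT and 4 in RGC-32 KO, with 0 falling in either. FURIN, the convertase that activates the proenzymes of MMP11 and MMP14, rose by 0.89 on the log2 scale in WT (adjusted p = 0.000122) and by 0.87 in RGC-32 KO (adjusted p = 0.000146). PCSK6, a related convertase, rose by 0.98 and 0.93. PLAUR, the urokinase receptor, rose by 1.25 and 1.10. SPOCK2 and SPOCK3 met the threshold in WT only, at 0.63 and 0.69, against 0.28 and 0.51 in RGC-32 KO. TFPI2 also met it in WT only, on 0 and 26 counts in control and 149 and 76 with TGF-β. In RGC-32 KO it had 0 and 24 and then 66 and 72 counts, so the size of its change rests on control replicate 2. As an interaction, 0 of the 16 genes met the threshold. A difference between the genotypes in the response of these genes was therefore not shown. In level, 0 of the 16 differed between genotypes past the threshold in control or with TGF-β, against 0.037% and 0.0444% of all genes. In each, 7 of the 16 were higher in RGC-32 KO. SPOCK3 was lower there, with means of 12.7 against 23.0 CPM untreated and 18.0 against 37.4 CPM with TGF-β.

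LRP1, the endocytic receptor that takes up MMP2, MMP9 and TIMP complexes, rose by 1.12 in WT (adjusted p = 0.000252) and by 0.62 in RGC-32 KO (adjusted p = 0.00313). The difference between these responses was -0.50 (SE 0.13, adjusted p = 1.00). RECK, a membrane-anchored inhibitor, had -0.22 in WT (adjusted p = 0.059) and -0.09 in RGC-32 KO (adjusted p = 0.433).

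Of 9 TIMP-sensitive sheddases and aggrecanases, 2 rose in each genotype and 0 fell. ADAM12 rose by 1.67 in WT and 1.66 in RGC-32 KO. ADAMTS4, an aggrecanase that TIMP3 inhibits, rose by 2.47 (adjusted p = 0.000859) and 2.13 (adjusted p = 0.00195). ADAM17, the main sheddase blocked by TIMP3, had 0.04 in each genotype (adjusted p = 0.746 and 0.729).

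Of 20 genes for matrix and surface proteins that MMPs cleave, 11 rose and 1 fell in each genotype. Over all genes tested, 7.72% rose and 5.65% fell in WT, and 6.61% and 4.93% in RGC-32 KO. The median over the 20 was 1.01 for WT and 0.87 for RGC-32 KO on the log2 scale. Several genes for basement membrane proteins, the substrates of MMP2 and MMP9, were among those that rose. NID1, a further one, did not, with means of 258 CPM in untreated and 235 CPM in stimulated WT cells. In RGC-32 KO cells the NID1 means were 240 and 215 CPM. COL4A1 rose by 0.93 and 0.83, COL4A2 by 0.99 and 0.92, and LAMC1 by 1.08 and 0.84. FN1, fibronectin, rose by 1.07 and 0.94, and the laminin genes LAMA2 by 1.48 and 1.17 and LAMB1 by 1.03 and 0.97. VCAN rose by 1.95 and 1.67 and TNC by 2.20 and 2.15, while BCAN, a brain proteoglycan, fell (-0.76 in WT, adjusted p = 0.00468, and -0.62 in RGC-32 KO, adjusted p = 0.0113). HSPG2, perlecan, was the one gene of the 20 past the threshold between genotypes with TGF-β (log2 difference -0.79, SE 0.089, adjusted p = 0.0451). The median difference over the 20 was -0.38, with 4 genes higher in RGC-32 KO. An unadjusted p under 0.05 (edgeR) was found for 10 of the 20, a larger share than the 11.7% of all genes. The genes short of the threshold were therefore not shown to be equal between genotypes.

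The reference genes of the TGF-β response met the threshold in 5 of 7 cases in WT and in 6 of 7 in RGC-32 KO. SMAD7 rose by 1.35 and 1.16, SKIL by 1.69 and 1.60, CTGF by 1.75 and 1.87, LTBP2 by 2.15 and 2.09 and PMEPA1 by 2.63 and 2.65. TIMP1 and TIMP3 lay within the range of these 7 genes, whose changes lay between 0.55 and 2.63 in WT cells and between 0.47 and 2.65 in RGC-32 KO cells.

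Across the 8 libraries, the genes whose log2 CPM followed each of the 9 most closely were listed as a description, since treatment sets most of the spread that the libraries share. CD248 was nearest to MMP2 (Pearson r = 0.998), RRBP1 to MMP14 (0.999), TAB2 to MMP15 (0.990) and TBC1D8 to MMP9 (0.983). QSOX2 was nearest to TIMP1 (0.994), IGF1 to TIMP3 (0.999), RGMB to TIMP2 (0.993), MAP3K15 to TIMP4 (0.982) and POLR1C to MMP11 (0.959). Among the 9 genes, MMP14 and TIMP3 were the closest pair (0.991), followed by MMP2 and MMP14 (0.975).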

How the data were processed

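RNA from 8 libraries (4 groups of 2) was analysed. The authors aligned unstranded reads with STAR in the VIPER pipeline (build mm10 per the labels) and deposited whole-number counts per gene symbol, not normalized. The counting program and annotation are not given in the sources used here. The authors also deposited FPKM values from Cufflinks, used here for levels between genes and as an alternative. The authors' deposited tables of fold changes and p-values were not used.

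Counts were tested in R 4.3.3 with edgeR 4.0.16 (filterByExpr, TMM, quasi-likelihood, 1 mean per group, all libraries, two-sided). CPM is the count scaled to the TMM-adjusted library total, with a prior count of 2 where logs were taken. SE was derived from the test statistic. Alternatives used DESeq2 1.42.0, limma 3.58.1, other filters and scalings, the replicate number as a block, and each library left out. The script was tested on simulated data. The 9 genes were given by name, and the related genes named come from those of the lists past the threshold for TGF-β and the gene nearest in pattern to each of the 9. MMP3, RECK, ADAM17 and NID1 were named, and the TGAGTAA search was added, after values were seen. 1 listed gene was left out of the counts and is not reported here. The genes and lists were chosen with earlier results of these data known. Nothing in the labels says that a replicate number marks a shared culture. With 2 libraries per group, precision rests on the spread shared by all groups. Depth was 14920561 to 18956038 counts per library.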

Additional observations from a re-analysis of the deposited data

How the results depend on the processing

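Under the alternatives, TIMP3, MMP14 and MMP2 passed the threshold for TGF-β in each genotype in all of them. The fit with the replicate number as a block changed no call among the 9 genes (4 up in WT, 5 up and 1 down in RGC-32 KO), and over all genes it gave 957 up and 659 down in WT and 814 and 555 in RGC-32 KO. Deviations of same-numbered libraries correlated at 0.491 and 0.253 between genotypes within a treatment and at -0.343 to -0.507 across treatments, and with 2 libraries per group and no shared animals or batches in the labels the numbers were not taken as pairs. A crossed pairing, chosen after seeing the data, set control replicate 1 beside TGF-β replicate 2 and control replicate 2 beside TGF-β replicate 1. As a block on the 4 libraries of a genotype it gave 4 up in WT and 5 up and 1 down in RGC-32 KO, and over all genes 1013 up and 811 down in WT and 1002 and 837 in RGC-32 KO. In that fit the adjusted p in RGC-32 KO was 7.32e-05 for MMP9 and 1.57e-05 for TIMP1. As a block on all 8 libraries it gave 5 up in WT, with MMP9 added, and 5 up and 1 down in RGC-32 KO, and over all genes 1167 up and 938 down in WT and 1040 and 812 in RGC-32 KO. There 0 of the 9 genes differed between genotypes past the threshold, while MMP2 (-0.28, adjusted p = 0.0375) and MMP14 (-0.19, adjusted p = 0.0485) averaged over treatments fell short of the fold threshold only, and over all genes 36 were up and 25 down in that comparison, and 11 and 25 with TGF-β.

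The count down-regulated in WT was 1 with Cufflinks FPKM and a pseudocount of 0.1 (MMP15, -0.61), where 8.09% of all genes were down, and 1 by adjusted p alone, where 14.3% of all genes were down. Averaged over genotypes it was 1 with upper quartile normalization (MMP15, -0.63), where 8.85% of all genes were down. With FPKM it was 1 at either pseudocount (MMP15, -0.69 at 0.1 and -0.64 at 1), where 8.7% and 4.47% of all genes were down. By adjusted p alone it was 2 (TIMP4 and MMP15), where 22.4% of all genes were down. The FPKM tables moved the median log2 fold change of all genes by -0.11 to -0.13, and upper quartile normalization by -0.083 to -0.086. Leaving out 1 library each gave 3 to 5 up and 0 to 1 down in RGC-32 KO, and 0 to 1 down averaged over genotypes. Only without RGC-32 KO control replicate 1 did the upward count reach 3 (TIMP3, MMP2 and MMP14).

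Reversed signs concerned genotype differences and interactions, of which 0 passed the threshold. With FPKM, the difference of TIMP4 in control was -0.089 and -0.076, and averaged over treatments that of TIMP1 was 0.0125 and 0.0118 and that of TIMP2 0.00673 and 0.00671, or 0.00449 with upper quartile normalization. Leaving out 1 library, the difference in control ran for MMP11 from -0.076 to 0.20, MMP15 from -0.084 to 0.22, TIMP1 from -0.66 to 0.90, TIMP2 from -0.068 to 0.085, TIMP3 from -0.18 to 0.021 and TIMP4 from -0.00601 to 0.080. With TGF-β it ran for MMP9 from -0.19 to 0.32, TIMP1 from -0.31 to 0.033, TIMP2 from -0.059 to 0.015 and TIMP4 from -0.033 to 0.33. Averaged over treatments it ran for MMP9 from -0.30 to 0.00204, MMP11 from -0.013 to 0.13, MMP15 from -0.11 to 0.038, TIMP1 from -0.39 to 0.38 and TIMP2 from -0.045 to 0.030. The interaction ran for MMP2 from -0.24 to 0.20, MMP11 from -0.16 to 0.13, TIMP1 from -1.03 to 0.53, TIMP2 from -0.11 to 0.045, TIMP3 from -0.23 to 0.023 and TIMP4 from -0.076 to 0.29. The cause of each was not tested. A group left with 1 library was assumed to vary like the others.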
